A study of Rattus norvegicus with 32 samples.

Results

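The 9 immediate early genes Fos, Fosb, Jun, Junb, Jund, Egr1, Atf3, Ier2 and Dusp1, were followed in rat uterus after long exposure to bisphenol A (BPA) or ethinyl estradiol (EE2). They were chosen by symbol, as the rows of the count table whose NCBI gene identifier maps to these names, and all 9 had a row among the 17327 genes of the table. All 9 passed the filter on low counts that left 13312 genes for testing. The uteri came from Sprague-Dawley rats of the NCTR breeding colony at 1 year of age (PND365), and RNA was sequenced from 4 libraries in each of 8 groups, 32 in all. EE2, a synthetic estrogen used in birth control pills, was dosed daily at 0.05 and 0.5 µg/kg. BPA, a plastic monomer that binds estrogen receptors, was dosed daily at 2.5, 25, 250, 2500 and 25000 µg/kg. The vehicle, in the control group, was 0.3% carboxymethylcellulose. Dams were dosed by gavage with BPA from gestation day 6 to labor and pups from postnatal day 1 until collection. The labels do not give the route and start for EE2 and vehicle apart from this. The groups are called by compound and dose below, and replicate numbers only name libraries. The labels name no animal, litter or estrous stage, and the p-values below therefore speak of variation among libraries, which may in part be technical. Within every group even the 2 most alike libraries differed by more than sampling noise, with a chi-square per degree of freedom of at least 12.7.

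Immediate early genes are transcribed within minutes of a stimulus from factors already present in the cell, and most of their mRNAs are short-lived. Fos, Fosb, Jun, Junb and Jund encode subunits of AP-1, a leucine zipper dimer that binds DNA, and Atf3 encodes a related zipper protein of the ATF/CREB family. Egr1 encodes a zinc finger factor driven by serum response factor, Ier2 a small nuclear protein, and Dusp1 a phosphatase that switches off MAP kinases, so Dusp1 is an early response gene but not a transcription factor. In the rodent uterus a single dose of estrogen is known to induce Fos and Jun rapidly, and the tissue here was collected after chronic dosing.

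Promoter sequences from RefSeq, on assembly GRCr8, were available for 6 members, Fosb, Junb, Jund, Egr1, Ier2 and Dusp1. Fos, Jun and Atf3 are named only. The window ran from 250 bases before to 50 bases after the annotated start. It was searched on both strands for TGANTCA, the cyclic AMP response element TGACGTCA and the CArG box bound by serum response factor. TGANTCA, with N any base, is a looser pattern than the AP-1 site. No 2 matches overlapped. The 4 promoters with a match are shown, to set the matches in their surroundings, and capitals mark the matches. The Jund stretch is chr16:18769772-18770021 on the minus strand, Egr1 is chr18:26736828-26737077 on the plus strand, Ier2 is chr19:40399123-40399372 on the plus strand and Dusp1 is chr10:17184603-17184852 on the plus strand.
Jund: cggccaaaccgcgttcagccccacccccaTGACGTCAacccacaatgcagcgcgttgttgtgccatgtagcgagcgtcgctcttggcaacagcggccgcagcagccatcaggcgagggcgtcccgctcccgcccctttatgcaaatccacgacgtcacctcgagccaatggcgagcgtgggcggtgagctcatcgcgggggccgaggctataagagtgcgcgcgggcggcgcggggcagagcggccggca
Egr1: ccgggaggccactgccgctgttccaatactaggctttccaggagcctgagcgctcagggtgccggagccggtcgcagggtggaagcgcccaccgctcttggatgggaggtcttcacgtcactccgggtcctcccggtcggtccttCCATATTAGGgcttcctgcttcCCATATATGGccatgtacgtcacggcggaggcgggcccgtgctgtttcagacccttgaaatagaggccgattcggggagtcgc
Ier2: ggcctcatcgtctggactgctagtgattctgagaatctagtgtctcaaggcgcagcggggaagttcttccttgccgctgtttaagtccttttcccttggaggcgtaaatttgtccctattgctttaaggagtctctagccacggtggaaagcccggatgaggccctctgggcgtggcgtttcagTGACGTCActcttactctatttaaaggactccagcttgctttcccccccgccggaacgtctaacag
Dusp1: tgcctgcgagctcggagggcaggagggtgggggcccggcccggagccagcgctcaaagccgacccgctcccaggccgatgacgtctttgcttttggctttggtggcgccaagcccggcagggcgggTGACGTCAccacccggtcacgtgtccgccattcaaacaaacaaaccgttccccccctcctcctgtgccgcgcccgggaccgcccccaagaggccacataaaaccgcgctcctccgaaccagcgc
TGACGTCA stood in 3 of the 6 promoters, from -221 to -214 in Jund, -66 to -59 in Ier2 and -124 to -117 in Dusp1, counted from the start site. It was present in 1.83% of all 33469 promoters in the table. GC made up 69.7% of the Jund window, 52.7% of the Ier2 window and 68% of the Dusp1 window, against a median of 51.7% over all promoters. No comparison with promoters of like GC was made. Egr1 held 2 CArG boxes, from -105 to -96 and from -83 to -74, and 1.64% of all promoters held at least 1. TGANTCA was in 0 of the 6, against 7.33% of all promoters. A match is a run of letters in this window only.

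Total counts per library ran from 11777809 to 24661856. The median correlation of a library with the others was 0.892 to 0.960. The 4 lowest were BPA 2.5 replicates 1 and 3, BPA 250 replicate 1 and BPA 25000 replicate 3, and called results that changed side of the threshold, or moved by over 1.5 times, without them are given both ways. No columns were identical. The uterine genes Esr1, Pgr, Hoxd10, Msx1 and Emx2 were detected in all 32 libraries. Levels are CPM, read counts scaled to a common library size by TMM, and differences are edgeR log2 fold changes with p adjusted over 13312 genes.

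Few members passed an adjusted p of 0.05 against vehicle, and those that did in a dose group were higher than vehicle. Jund rose at EE2 0.5 and at BPA 2.5, Dusp1 rose at BPA 25 and BPA 250, and Fosb rose at BPA 25000. So 1 of 9 members was called at EE2 0.5, BPA 2.5, BPA 25, BPA 250 and BPA 25000, against 0.556%, 11.4%, 1.92%, 8.79% and 2.32% of all genes in that order. At BPA 2.5 and BPA 250 that count is near the background. At EE2 0.05 edgeR called 0 members, against 0.0451% of genes, with 1 at an unadjusted p under 0.05 (11.5% of genes), 0 by DESeq2 and 1 by limma voom. At BPA 2500 edgeR called 0 members and 0% of genes, with 2 members and 1353 genes (10.2%) at an unadjusted p under 0.05. There DESeq2 called 1 member and 87 genes, and limma voom 0 members and 0 genes. For the mean of both EE2 doses edgeR called 0 members, against 0.0676% of genes, with 3 at an unadjusted p under 0.05 (15% of genes), 0 by DESeq2 and 2 by limma voom. Across the 8 groups together, the F test called Jund, Dusp1 and Ier2, 3 of 9 members, against 31.7% of genes.

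**Figure D1:**
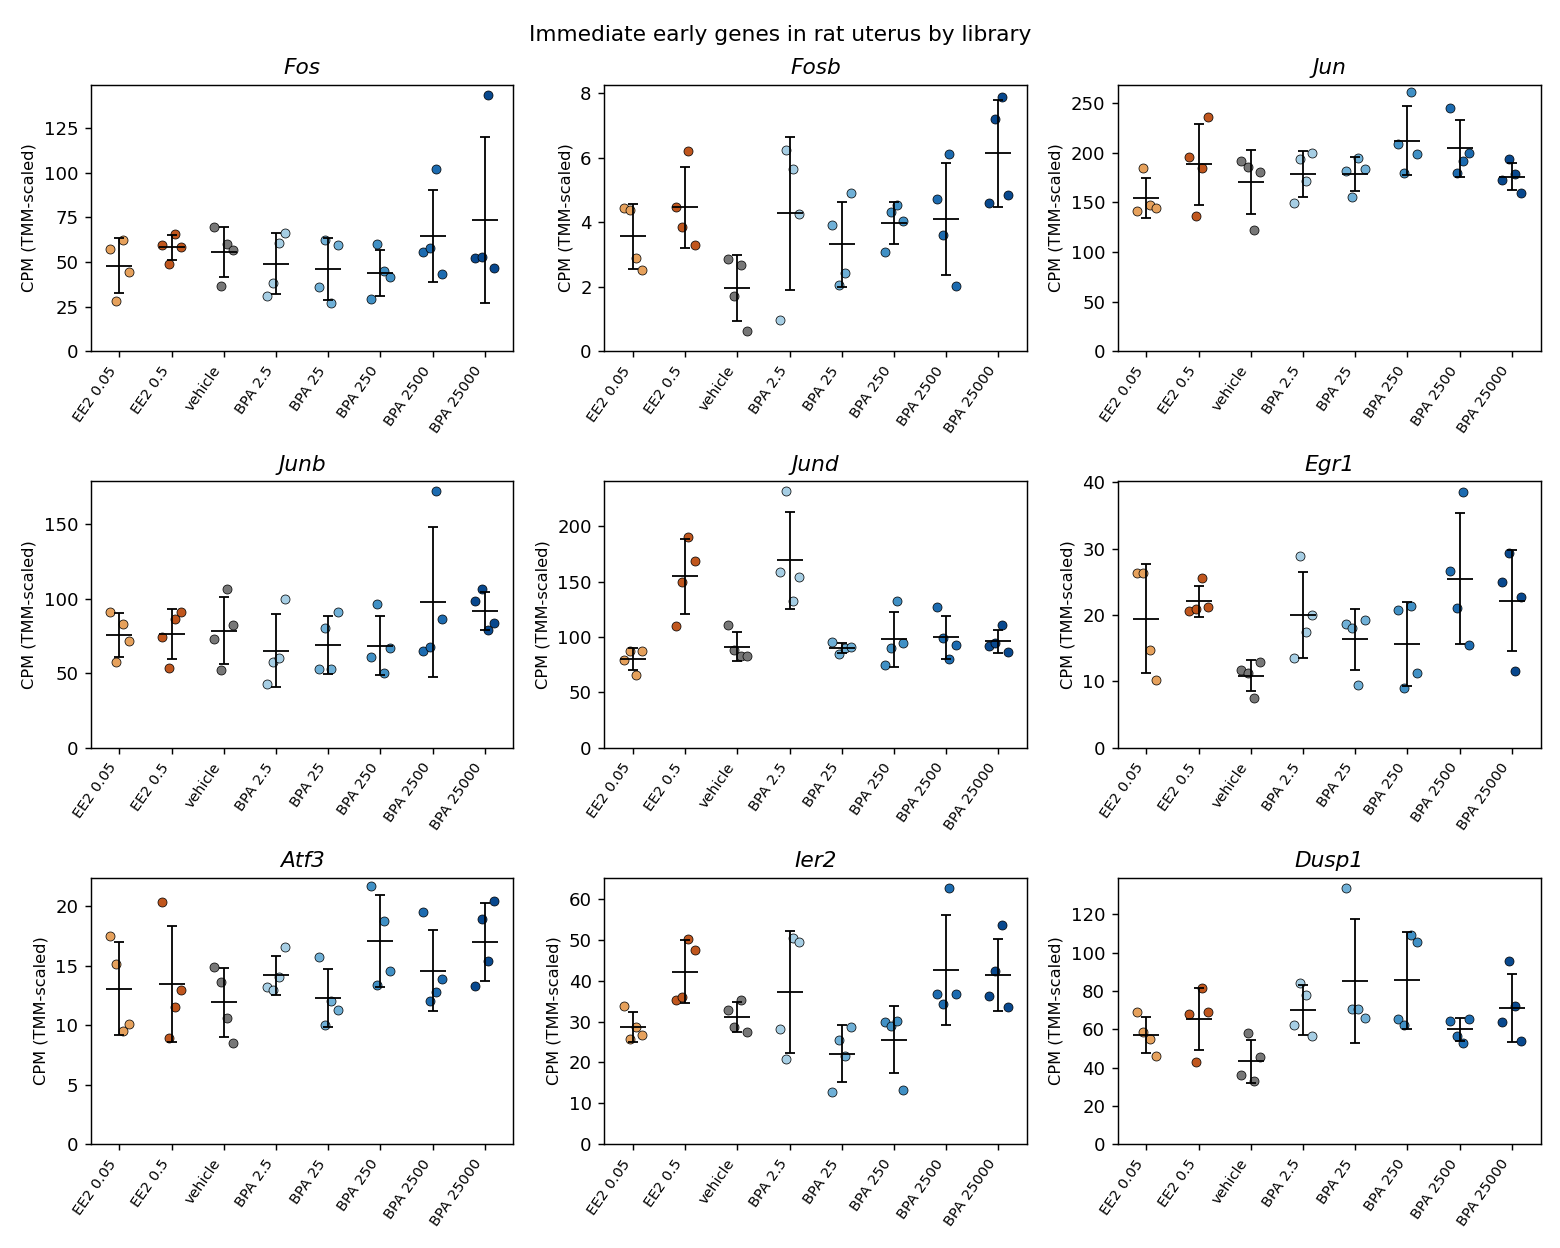
CPM of the 9 genes in each of 32 libraries, with 1 panel per gene and groups along the horizontal axis; points are libraries and bars show the group mean and SD (n = 4). Jund stands higher in EE2 0.5 and BPA 2.5 than in the other groups, and vehicle has the lowest mean for Fosb, Egr1, Atf3 and Dusp1.

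Jund, the AP-1 subunit usually described as the most evenly expressed, had 159, 232, 132 and 154 CPM in the BPA 2.5 libraries, against 110, 88.1, 83.0 and 82.6 CPM in vehicle. All 4 BPA 2.5 libraries were above all 4 vehicle libraries, as were 6.45% of genes in that comparison. Jund was higher at BPA 2.5 by 0.89 on the log2 scale (SE 0.18, edgeR adjusted p = 0.0040). The call held without each single library, with adjusted p between 0.0026 and 0.0237, and without the 4 libraries set apart the difference was 1.09 (edgeR adjusted p = 0.0059). Fitted on the 8 libraries of the 2 groups alone it was 0.86 with an edgeR adjusted p of 0.0716. At EE2 0.5 the libraries had 110, 150, 190 and 169 CPM, and the lowest of them fell just under the highest vehicle library, so these groups overlapped. The difference was 0.77 (SE 0.18, edgeR adjusted p = 0.0478). That call was lost without vehicle replicate 2, 3 or 4 (edgeR adjusted p = 0.168, 0.221 and 0.115) and without EE2 0.5 replicate 2, 3 or 4 (0.0724, 0.154 and 0.127). It was also lost without a filter on low counts (0.0517) and on the groups compared alone (0.0503).

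At the other doses Jund was not called. Means were 79.8 ± 10.04 CPM at EE2 0.05, 90.0 ± 4.34 at BPA 25, 97.7 ± 24.8 at BPA 250, 99.8 ± 19.6 at BPA 2500 and 96.0 ± 10.6 at BPA 25000, against 91.1 ± 13.2 CPM in vehicle (SD, n = 4 each). EE2 0.5 exceeded EE2 0.05 by 0.96 (SE 0.18, edgeR adjusted p = 0.0613), with no overlap between the libraries, as for 4.88% of genes. Of the 9 members edgeR called 0 between the EE2 doses, against 0.015% of genes, with 1 at an unadjusted p under 0.05 (9.01% of genes). DESeq2 and limma voom each called 1 there, Jund at adjusted p of 0.0023 and 0.0049, and edgeR called it without EE2 0.5 replicate 1 (adjusted p = 0.0076) and without the 4 libraries set apart (0.0347). Across the BPA doses the Jund linear trend was -0.15 per 10-fold dose (SE 0.04, edgeR adjusted p = 0.0365), the only trend call among the members, against 4.62% of genes. It was no steady fall, since the mean was 169 CPM at BPA 2.5 and stayed between 90.0 and 99.8 CPM at the higher doses. That trend was lost without BPA 2.5 replicate 1 or 2 (edgeR adjusted p = 0.0965 and 0.110), BPA 25 replicate 1 or 3 (0.0580 and 0.0504), BPA 2500 replicate 3 or 4 (0.0625 and 0.0576) and BPA 25000 replicate 1, 2 or 4 (0.0769, 0.0751 and 0.0830), and on the BPA groups alone (0.127). Over all 8 groups the F statistic was 9.85 (edgeR adjusted p = 0.0002), and it held without every single library.

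Markers of other cell types differed between these groups as well. Summed over 5 squamous epithelium markers, Krt5, Krt14, Krt13, Krt4 and Calml3, the level ran from 30.03 to 226 CPM at EE2 0.5 and from 24.6 to 33.2 CPM at BPA 2.5, against 0.652 to 1.74 CPM in vehicle. Krt4 was at 0 in 22 of the 32 libraries. At EE2 0.05 the sum ran from 0.762 to 400 CPM, and Jund from 65.7 to 87.0 CPM. Summed over 5 ciliated cell markers, BPA 2.5 ran from 2.68 to 421 CPM, against 0.797 to 1.98 CPM in vehicle. At EE2 0.5 the sum over 5 red blood cell markers ran from 449 to 538 CPM, against 197 to 300 CPM in vehicle, and that over 6 macrophage markers from 368 to 501 CPM, against 218 to 324 CPM in vehicle. The sum over ciliated cell markers ran from 2.41 to 4.53 CPM there, and that over 6 endothelial markers from 634 to 1031 CPM, against 569 to 643 CPM in vehicle. Cldn5 was the 1 endothelial marker called there, against 0.263% of all genes higher. Its mean was 228 CPM, against 67.7 CPM in vehicle. The part of these cell types in the Jund values was not tested. In bulk tissue, a change in the number of cells of a type cannot be told apart from a change in RNA per cell.

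Dusp1 had 134, 70.6, 70.7 and 66.1 CPM at BPA 25, and 65.1, 62.4, 109 and 105 CPM at BPA 250, against 36.04, 58.2, 33.2 and 45.7 CPM in vehicle. Both BPA groups lay wholly above vehicle, as did 10.2% and 9.5% of genes in those comparisons. The differences were 0.98 at BPA 25 (SE 0.24, edgeR adjusted p = 0.0393) and 0.98 at BPA 250 (SE 0.24, edgeR adjusted p = 0.0169). The BPA 25 call was lost without any 1 vehicle library, replicates 1 to 4 (edgeR adjusted p = 0.0763, 0.0738, 0.107 and 0.101), and without BPA 25 replicate 1 (0.68, 0.181) or 3 (0.0567). The BPA 250 call was lost without vehicle replicate 3 (0.0563) or BPA 250 replicate 4 (0.0572). At the other doses the log2 fold change ran from 0.40 at EE2 0.05 to 0.72 at BPA 25000, and none was called. The BPA 2.5 comparison passed in 4 of the other fits. Among these were the fits without vehicle replicate 2 and without BPA 2.5 replicate 4 (edgeR adjusted p = 0.0414 and 0.0384). The BPA 25000 comparison passed in 1 of the other fits, and without a single library its lowest edgeR adjusted p was 0.0907. The mean over the 5 BPA doses exceeded vehicle by 0.77 (SE 0.20, edgeR adjusted p = 0.0476), the 1 member called, against 1.34% of genes. It was lost without any 1 vehicle library (edgeR adjusted p = 0.106 to 0.203) and without any of 10 BPA libraries, replicates 1 and 3 of BPA 2.5, 1 and 3 of BPA 25, 3 and 4 of BPA 250, 2 and 4 of BPA 2500, and 2 and 4 of BPA 25000 (0.0511 to 0.0650), and also without a filter (0.0522) and on the groups compared alone (0.0888). Over the 8 groups, Dusp1 gave F = 3.48 (edgeR adjusted p = 0.0310), and the adjusted p was 0.0757, 0.0841 and 0.0575 without vehicle replicates 1, 3 and 4 and 0.0577 without BPA 250 replicate 4. Summed smooth muscle markers ran from 12406 to 18030 CPM at BPA 25 and from 16291 to 20728 CPM at BPA 250, against 17535 to 33760 CPM in vehicle. Summed stromal markers ran from 19330 to 22758 CPM at BPA 250, against 6442 to 17437 CPM in vehicle. Of these 6 markers 5 had a log2 fold change above 0 there, and 2, Dcn and Lum, were called, against 4.44% of all genes higher. Dcn made up much of the sum, with a mean of 11331 CPM, against 3798 CPM in vehicle. Summed red blood cell markers ran from 455 to 530 CPM at BPA 25 and from 329 to 519 CPM at BPA 250, against 197 to 300 CPM in vehicle. At BPA 25 summed ciliated cell markers ran from 23.998 to 44.5 CPM, against 0.797 to 1.98 CPM in vehicle, and summed squamous markers from 3.22 to 4.56 CPM, against 0.652 to 1.74 CPM in vehicle. The part of these cell types in the Dusp1 values was not tested.

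Fosb, an AP-1 subunit that in other tissues has a stable short form, had few reads, 91 to 144 in the BPA 25000 libraries and 9 to 37 in vehicle. Its level was 4.59, 7.21, 7.90 and 4.86 CPM at BPA 25000, against 2.85, 1.70, 2.68 and 0.627 CPM in vehicle. Every BPA 25000 library was above every vehicle library, as for 6.16% of genes. The difference was 1.65 (SE 0.46, edgeR adjusted p = 0.0500, 0.049975 before rounding), at the threshold. Leaving out vehicle replicate 1, 2, 3 or 4 gave an edgeR adjusted p of 0.0523, 0.148, 0.0923 and 0.136, and leaving out BPA 25000 replicate 2, 3 or 4 gave 0.151, 0.0800 and 0.101. It was also lost under size factors from DESeq2 (0.0502), with all genes kept (0.0572), under a robust spread (0.0505) and on the groups compared alone (0.0854). Within groups, Fosb correlated with library depth (r = -0.38, Spearman -0.60, permutation adjusted p = 0.0230 and 0.0026 over 9 members, n = 32 libraries), and r was -0.52 without BPA 250 replicates 2 and 3, the 2 farthest in depth. Within groups the deeper libraries thus tended to have lower Fosb. Total counts averaged 19093263 at BPA 25000 and 13710994 in vehicle, so between these groups the higher Fosb was in the deeper group. The part of depth in the Fosb values was not tested. Atf3 gave r = -0.47 with depth (permutation adjusted p = 0.0674), rho = -0.51 (permutation adjusted p = 0.0496) and r = -0.48 without the same 2 libraries, and no other member passed by either measure.

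**Figure D2:**
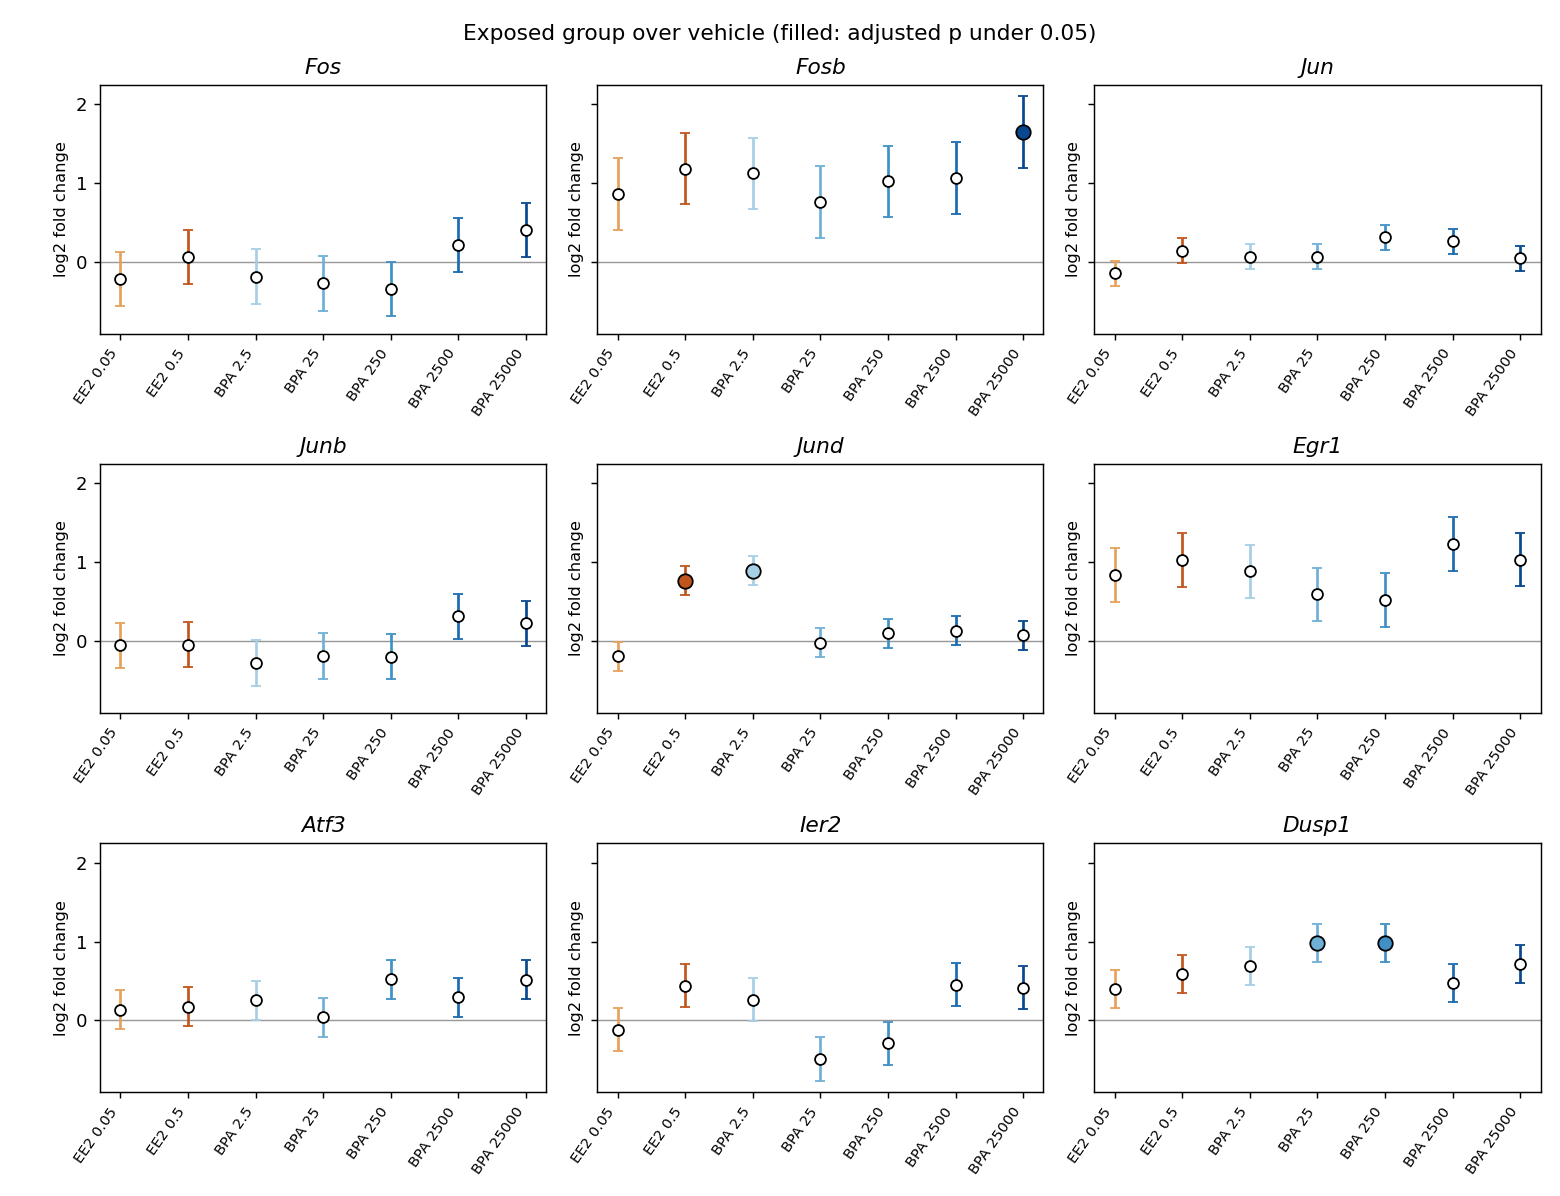
Log2 fold change over vehicle for each of the 9 genes in the 7 exposed groups, with bars of 1 SE from edgeR; filled points had an adjusted p under 0.05. The 5 filled points are Fosb at BPA 25000, Jund at EE2 0.5 and BPA 2.5, and Dusp1 at BPA 25 and BPA 250.

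Egr1 was higher than vehicle in every exposed group without passing the test in any. The largest difference was at BPA 2500, where the libraries had 26.6, 21.1, 38.6 and 15.5 CPM, against 11.7, 11.2, 7.46 and 12.9 CPM in vehicle. No library of that group fell to the highest vehicle library, as for 4.22% of genes. The log2 fold change was 1.23 (SE 0.34, edgeR adjusted p = 0.246). DESeq2 called it (1.24, adjusted p = 0.0482). At BPA 25000 the difference was 1.03 (edgeR adjusted p = 0.0934), and it passed without BPA 25000 replicate 3 (1.25, 0.0390) and without the 4 libraries set apart (0.0268), and by DESeq2 (adjusted p = 0.0450) and limma voom (0.0017). At EE2 0.5 the libraries had 20.6, 20.9, 25.5 and 21.2 CPM, all above vehicle, as for 6.8% of genes there (1.03, edgeR adjusted p = 0.129). That comparison passed on the groups compared alone (edgeR adjusted p = 0.0324), the fit in which Jund was lost, and by limma voom (0.0360). At BPA 2.5 the Egr1 libraries were also all above vehicle, as for 6.45% of genes there (0.89, edgeR adjusted p = 0.0880).

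Several members lay above vehicle at every dose. All 7 log2 fold changes were above 0 for 4 members, Fosb, Egr1, Atf3 and Dusp1, against 14.3% of all genes, and 0 members had all 7 below 0, against 13.3%. The 7 comparisons share the same 4 vehicle libraries, so they do not count as 7 separate observations. For Fosb, Egr1 and Dusp1 all 7 stayed above 0 under DESeq2's size factors and without each single library. For Atf3 they stayed so under DESeq2's size factors, but 1 of the 7 fell below 0 without vehicle replicate 3 or 4 or replicate 1 of EE2 0.05, EE2 0.5 or BPA 25, with a lowest value of -0.10. Fosb differences ran from 0.76 at BPA 25 to 1.65 at BPA 25000. At EE2 0.5 and BPA 250, too, every Fosb library was above every vehicle library, as for 6.8% and 9.5% of genes. At BPA 2.5 Fosb passed only without BPA 2.5 replicate 1 (edgeR adjusted p = 0.0382). Atf3 differences ran from 0.04 at BPA 25 to 0.52 at BPA 250, and none was called by edgeR. Limma voom called Atf3 at BPA 25000 (0.87, adjusted p = 0.0014).

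Fos, the partner of Jun in the classical AP-1 dimer, ranged from 26.9 to 143 CPM over the libraries with no call in any comparison. Its means ran from 43.9 ± 12.8 CPM at BPA 250 to 73.7 ± 46.6 CPM at BPA 25000, against 55.6 ± 13.9 CPM in vehicle (SD, n = 4 each), and the highest mean rested on BPA 25000 replicate 3 at 143 CPM. Jun means ran from 155 ± 20.1 CPM at EE2 0.05 to 212 ± 34.9 CPM at BPA 250, against 170 ± 32.1 CPM in vehicle. Junb means ran from 64.9 ± 24.4 CPM at BPA 2.5 to 97.6 ± 50.5 CPM at BPA 2500, against 78.4 ± 22.6 CPM in vehicle. The Junb trend over BPA dose passed only without BPA 2.5 replicate 4 (0.21 per 10-fold dose, edgeR adjusted p = 0.0379) and by limma voom (0.18, adjusted p = 0.0299). For these 3 genes no neighbours in the order of the 8 means differed by more than the larger SD. Ier2 means ran from 22.1 ± 6.93 CPM at BPA 25 to 42.6 ± 13.4 CPM at BPA 2500, against 31.1 ± 3.61 CPM in vehicle. The Ier2 F statistic over the 8 groups was 3.41 (edgeR adjusted p = 0.0334). It was lost without vehicle replicate 2 (0.0551), EE2 0.05 replicate 3 (0.0554), EE2 0.5 replicate 3 or 4 (0.0674 and 0.0514), BPA 25 replicate 1, 2 or 3 (0.0596, 0.0564 and 0.0599), BPA 25000 replicate 3 (0.0550), and without the 4 libraries set apart (0.0590). Its neighbours in the order of means did not differ beyond the larger SD either.

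The order of the other means was flat in most places. Fosb and Jund each had 2 of 7 neighbouring pairs apart by more than the larger SD, Dusp1 had 1, and Egr1 and Atf3 had 0. Spread between libraries of a group also differed among members. The edgeR coefficient of variation was at the 76.5th percentile of all genes for Fosb, the 68.7th for Fos and the 67.5th for Egr1. It was at the 24.4th for Jund and the 14.7th for Jun.

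**Figure D3:**
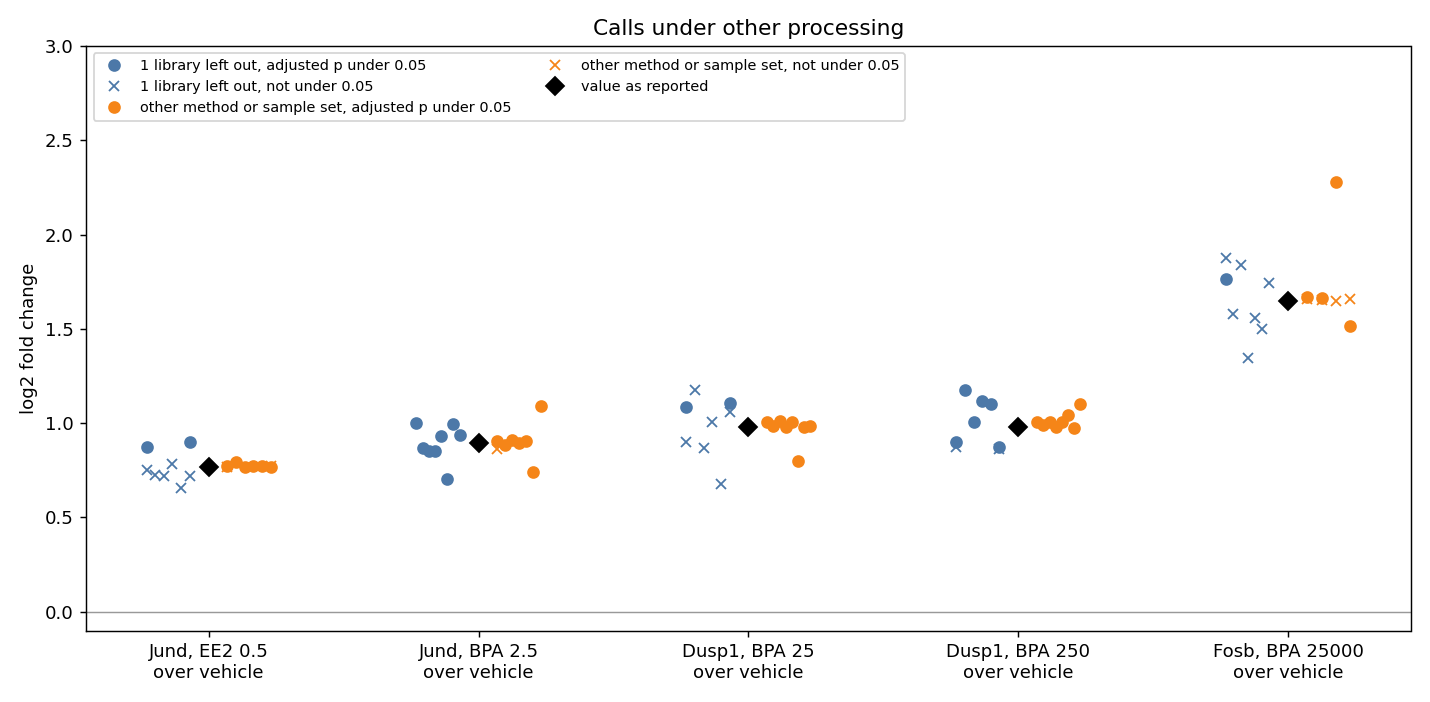
Log2 fold change over vehicle of the 5 dose comparisons with a call, as reported (diamond), without each single library (blue) and with another method or set of libraries (orange); circles had an adjusted p under 0.05 and crosses did not. The sign held in all, Jund at BPA 2.5 lost its call only with the groups compared alone, and Fosb at BPA 25000 lost it in most settings.

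Members varied together within groups only in part. Over the 36 pairs, the median Pearson r of group-centred log2 CPM was 0.17, from -0.32 to 0.61, and 25 pairs were positive. Fos and Junb gave r = 0.61 (permutation adjusted p = 0.0371) and rho = 0.65 (permutation adjusted p = 0.0184, n = 32 libraries), and r was 0.69 without BPA 2500 replicate 3 and BPA 25000 replicate 3, the 2 farthest on the x axis. Fos and Ier2 gave r = 0.58 (permutation adjusted p = 0.0533) and rho = 0.64 (permutation adjusted p = 0.0230), and r = 0.51 without the same 2. Junb and Ier2 gave r = 0.53 (permutation adjusted p = 0.150). Jun gave r = 0.49 with Atf3, 0.48 with Dusp1 and -0.11 with Fos, none of which passed. All 36 pairs were tested.

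**Figure D4:**
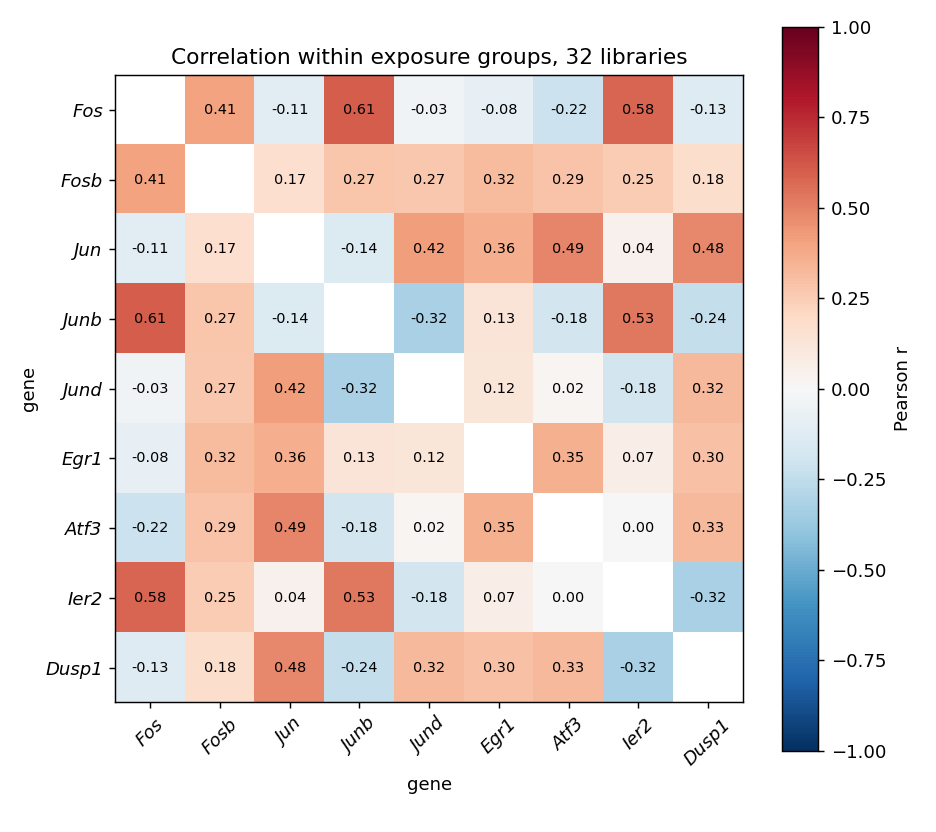
Pearson r of group-centred log2 CPM between the 9 genes over 32 libraries, with each cell labelled by its r. The cells for Fos with Junb (0.61), Fos with Ier2 (0.58) and Junb with Ier2 (0.53) are the deepest red, and those for Junb with Jund and for Ier2 with Dusp1 (both -0.32) are the deepest blue.

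Among 11473 other genes, those most like each member in group-centred level over the 32 libraries were described by Pearson r. For Dusp1 they were Camta1 (0.83), Ccn2 (0.77) and Cyp27a1 (0.73), followed by Klf15 and Gmpr. For Ier2 they were Mea1, Anp32b, Adprs, Rab5c and Ppp1r14b (0.82 to 0.84). For Junb they were Il17ra, Capg, Arpc1b, Sash3 and RT1-DMa (0.80 to 0.82). For Fos they were Galnt9, Ripk3, Ehd4, Fhod1 and Tpcn2 (0.77 to 0.81). For Jund they were Ldb3, Qng1, Inpp5f, Rbm7 and Ctdsp1 (0.70 to 0.72). Those of Jun were led by Ltbp3 (0.74), those of Egr1 by Lama4 (0.75) and those of Atf3 by Rad52 (0.72), while Fosb reached only 0.67, with Vtn. These values are descriptions, since depth, library and many genes are shared.

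Among other immediate early transcription factors Maff had most of the calls. Of 17 tested, 1 rose at EE2 0.5, BPA 2.5, BPA 25 and BPA 25000, and 2 rose at BPA 250, while none fell. Of all genes, 0.263%, 7.06%, 0.954%, 1.36% and 4.44% rose in that order. At BPA 2.5 a count of 1 in 17 is near the background. Maff, a small leucine zipper protein of the Maf family, accounted for 4 of the calls in this list, at BPA 2.5, 25, 250 and 25000. At BPA 250 it was higher by 1.88 (edgeR adjusted p = 0.0039), and this held without every single library and under every other setting. At BPA 2.5, 25 and 25000 the differences were 1.27, 1.31 and 1.33, and each lost its call when 1 or more single libraries were left out, at edgeR adjusted p up to 0.0592, 0.181 and 0.117. The BPA 2.5 call was also lost without the 4 libraries set apart (1.22, 0.0688). For the mean over the BPA doses Maff was higher by 1.33 (edgeR adjusted p = 0.0242), lost without vehicle replicate 2, 3 or 4 (0.120, 0.114 and 0.0509). The other calls were Klf2 at EE2 0.5 and Ier5 at BPA 250, each lost without at least 1 library. Of the panel Fosl1, Fosl2, Egr2, Egr3, Nr4a1, Zfp36, Btg2 and Klf4, none passed against vehicle, and Fosl2 rose with BPA dose by 0.20 per 10-fold dose (edgeR adjusted p = 0.0441, up to 0.159 without a single library and 0.307 without the 4 libraries set apart). The median of the list was -0.33 to 0.04 over the exposures, against -0.02 to 0.05 for all genes.

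Upstream kinases and factors gave 7 calls against vehicle over the 7 exposed groups, all lower. Mapk14, which encodes p38 alpha and is a target of Dusp1, fell at BPA 250 by 0.97 (edgeR adjusted p = 0.0018) and at BPA 25 by 0.91 (0.0206). Map2k2, a MEK kinase, fell at BPA 250 by 1.01 (edgeR adjusted p = 0.0100) and at BPA 25 by 1.05 (0.0273). At BPA 250 both held without every single library and under every other setting. At BPA 25 Mapk14 was lost without vehicle replicate 2 or 4 or BPA 25 replicate 1, up to 0.0974, and Map2k2 without vehicle replicate 2, 3 or 4 or BPA 25 replicate 1 or 3, up to 0.135. Map2k4, a kinase that activates JNK, fell at BPA 2.5 by 0.60 (edgeR adjusted p = 0.0094), which held without every single library and was lost on the groups compared alone (0.0617). Of 17 genes tested, 2 were lower at each of BPA 2.5, BPA 25 and BPA 250, and 1 at EE2 0.5. Of all genes, 4.39%, 0.969%, 4.35% and 0.293% were lower in that order. At these 3 BPA doses 11.4%, 1.92% and 8.79% of all genes were called in either direction. Against the shares called in either direction, a count of 2 in 17 at BPA 2.5 and BPA 250 is near the background. The list median ran from -0.13 to 0.03 over the exposures.

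Known AP-1 target genes had most calls at BPA 250, where 3 of 13 were higher, against 4.44% of all genes. Another call was for Cd44 at BPA 25, higher by 1.12 (edgeR adjusted p = 0.0394, up to 0.182 without a single library). At BPA 25000 there were 2 higher, Plau and Spp1, and at BPA 2.5 the chemokine gene Ccl2 was lower (edgeR adjusted p = 0.0297). Of all genes, 0.954% were higher at BPA 25, 1.36% were higher at BPA 25000 and 4.39% were lower at BPA 2.5. The Ccl2 difference was -1.84, -1.19 without vehicle replicate 4 (0.175) and -1.68 without the 4 libraries set apart (0.169). At BPA 250 Spp1, which encodes osteopontin, was higher by 5.26 (SE 1.16, edgeR adjusted p = 0.0104), and Cd44, a receptor for hyaluronan, by 1.51 (SE 0.28, edgeR adjusted p = 0.0053). Both held without every single library, with Spp1 at 3.67 to 5.67 (edgeR adjusted p up to 0.0479) and Cd44 at 1.16 to 1.69 (up to 0.0280). Spp1 varied widely at BPA 250, with 1230 ± 1658 CPM, against 32.1 ± 24.8 CPM in vehicle (SD, n = 4 each). At BPA 25000 Spp1 was higher by 4.35 (edgeR adjusted p = 0.0376, up to 0.139 without a single library). Macrophages also express Spp1 and Cd44, and 6 summed macrophage markers ran from 273 to 406 CPM at BPA 250 and from 138 to 595 CPM at BPA 25000, against 218 to 324 CPM in vehicle, and their part was not tested. Plau, the urokinase gene, was higher by 1.91 at BPA 250 (edgeR adjusted p = 0.0241) and by 2.45 at BPA 25000 (0.0166), and each was lost without at least 1 library (up to 0.162 and 0.113). At BPA 250 Plau was 1.12 without BPA 250 replicate 1 (0.162) and 1.10 without the 4 libraries set apart (0.0669). Of 25 feedback and effector genes, 3 rose at BPA 250, against 4.44% of all genes. Ptgs2 was higher by 2.78, Sgk1 by 0.91 and Ccn2 by 1.57 (edgeR adjusted p = 0.0104, 0.0175 and 0.0356). Each was lost without at least 1 library (up to 0.0804, 0.0647 and 0.166). Ptgs2 was 1.64 without BPA 250 replicate 1 (0.0804) and 1.63 without the 4 libraries set apart (0.0563), and Ccn2 was 0.92 without BPA 250 replicate 3 (0.166). At BPA 2.5, 1 of the 25 was higher, Ccn2, and 1 was lower, Rhob, against 7.06% and 4.39% of all genes. These counts are near the background. Both calls were lost without the 4 libraries set apart (edgeR adjusted p = 0.121 and 0.341). Among 14 other zipper proteins, Crem was lower at BPA 2.5 by 0.78 (edgeR adjusted p = 0.0041). That call held without every single library and was lost on the groups compared alone (0.0747) and without the 4 libraries set apart (0.0756). Nfe2l2 was also lower there and higher at BPA 250 with Maf, and Atf7 was higher at BPA 25000, each lost without at least 1 library. So 2 of the 14 were lower at BPA 2.5, 2 were higher at BPA 250 and 1 was higher at BPA 25000. Of all genes, 4.39%, 4.44% and 1.36% were called so in that order. Without the 4 libraries set apart both Nfe2l2 calls were lost (0.183 at BPA 2.5 and 0.0576 at BPA 250), and without vehicle replicate 3 the Nfe2l2 difference at BPA 2.5 was -0.26 (0.263). List medians ran from -0.11 to 0.40 for the AP-1 targets, from 0.03 to 0.40 for the feedback genes and from -0.04 to 0.18 for the zipper proteins, against -0.02 to 0.05 for all genes.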

How the data were processed

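RNA from rat uterus was sequenced after column extraction and standard Illumina library preparation, per the labels' protocols. The authors deposited 1 table of raw counts per gene, with 32 columns matched to 32 samples. bcl2fastq, TopHat and edgeR, with build rn5, are named in the submitters' processing notes, with no versions. For the annotation and the strand setting, the sources used here say nothing. Atf3 overlaps Garin4 in the RefSeq table of GRCr8 and Garin4 had 0 counts in every library. Fosb overlaps a lncRNA that was not analysed here, so its values are uncertain to that extent. Identifiers were matched to symbols through that table, used for names only: 17167 matched and 160, with 1.82% of counts, did not. Hoxa10 and Hoxa11 were not analysed here.

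Counts were fitted in R 4.3.3 with edgeR 4.0.16 (TMM, filterByExpr with minimum count 10 and minimum total 15, quasi-likelihood, 1 mean per group over all 8 groups, Benjamini-Hochberg over 13312 genes, threshold 0.05). CPM use TMM-scaled sizes, with a prior count of 2 for log2 values. There were 12 comparisons. The other fits were limma 3.58.1 voom with sample weights, DESeq2 1.42.0, DESeq2's size factors, no filter, 1 CPM in 16 libraries, a robust spread, the groups compared alone, without each library, and without the 4 libraries set apart. Correlations used 100000 permutations within groups. Named genes were the members, a fixed panel, up to 3 called genes per list and comparison, and the 5 most alike genes per member. Not every gene under that rule is printed. Members, lists and tests were chosen with earlier results of these data known. Steps were tested on simulated counts. Total counts set the depth.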

Additional observations from a re-analysis of the deposited data

Results flagged for a closer look

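Dixon's test at the 95% level marked 8 of 72 sets of 4 libraries, and chance alone marks about 1 in 20. A library is marked when its gap to the nearest library is large against the range of the 4. The other 3 Egr1 libraries at EE2 0.5 lay at 20.6 to 21.2 CPM, so a small gap was enough there. Fos was at 143 CPM in BPA 25000 replicate 3. Jun was at 184 CPM in EE2 0.05 replicate 2 and at 123 CPM in vehicle replicate 3. Egr1 was at 25.5 CPM in EE2 0.5 replicate 3 and at 9.47 CPM in BPA 25 replicate 3. Ier2 was at 13.2 CPM in BPA 250 replicate 4 and at 62.7 CPM in BPA 2500 replicate 3. Dusp1 was at 134 CPM in BPA 25 replicate 1, and without that library its log2 fold change at BPA 25 was 0.68 (edgeR adjusted p = 0.181).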

How the results depend on the processing

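No paired analysis was possible because the labels carry no replicate numbers or pairs. No result that was called turned its sign in any alternative run on it. Differences of members that were not called did turn, among them Fos at BPA 25000 (-0.14 without BPA 25000 replicate 3, against 0.41), Junb at BPA 2500 (-0.12 without BPA 2500 replicate 3, against 0.31) and Jund at BPA 25 (0.01 under DESeq2's size factors, against -0.02), a check added after seeing the data. The F test of Jund and the call of Jund at BPA 2.5 changed side in no fit without a single library. The counts of members called moved as follows. DESeq2's size factors left 0 at BPA 25000. Without a filter 0 were left at EE2 0.5, at BPA 25000 and for the BPA mean. A robust spread left 0 at BPA 25000. DESeq2 gave 2 at BPA 2.5, 1 at BPA 2500, 2 at BPA 25000, 3 for the BPA mean and 1 between the EE2 doses. Limma voom gave 1 at EE2 0.05, 3 at EE2 0.5, 2 at BPA 2.5, 2 at BPA 250, 4 at BPA 25000, 2 for the EE2 mean, 4 for the BPA mean, 1 between the EE2 doses, 2 for the trend and 6 over the 8 groups. Fitting only the groups compared, with fewer libraries to estimate the spread, left 0 at BPA 2.5, 0 at BPA 25000, 0 for the BPA mean, 0 for the trend and 1 for the EE2 mean. Without the 4 libraries set apart there were 2 at BPA 25000, 3 for the BPA mean and 1 between the EE2 doses. Without a single library the count was 0 to 1 at EE2 0.5, BPA 25, BPA 250 and BPA 25000, between the EE2 doses and for the BPA mean, 1 to 2 at BPA 2.5, 0 to 2 for the trend, 2 to 3 over the 8 groups and 0 at EE2 0.05, BPA 2500 and the EE2 mean. The median correlation was 0.12 to 0.23. Fosb had 9 to 37 reads in the vehicle libraries, so its vehicle level carries a wide counting error. Except where a value shows it, the cause was not tested.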

Other observations

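Clock genes and heat shock genes were measured beside the members. Of 13 clock genes, 2 rose at EE2 0.5, against 0.263% of all genes. They were Dbp by 1.40 and Nr1d1 by 0.98 (edgeR adjusted p = 0.0425 and 0.0478), and both calls were lost without at least 1 library, at up to 0.195 and 0.248. Cry2, a core repressor of the clock, rose at BPA 2.5 by 1.19 (edgeR adjusted p = 0.0079), where 7.06% of all genes rose. The Cry2 call held without every single library and was lost on the groups compared alone (0.0538) and without the 4 libraries set apart (0.0596). Nr1d1 was lower at BPA 250 by 0.88 on the log2 scale (edgeR adjusted p = 0.0240, up to 0.0903 without a single library). Cry1, another repressor, was higher there by 0.67 (edgeR adjusted p = 0.0456), lost without any 1 of the 8 libraries (0.0575 to 0.110). Of all genes, 4.35% were lower and 4.44% were higher at BPA 250. The time of day of collection is not given in the sources used here. Of 11 heat shock genes, 0 rose against vehicle in any exposed group by edgeR. Of all genes, the share that rose ran from 0% at BPA 2500 to 7.06% at BPA 2.5. At BPA 2.5, 2 of the 11 were lower, against 4.39% of all genes. Hspe1 and Hspd1, the mitochondrial chaperonins, fell at BPA 2.5 by 1.26 and 0.51 on the log2 scale (edgeR adjusted p = 0.0147 and 0.0282), and each was lost without at least 1 library, at up to 0.0596 and 0.0966. Without the 4 libraries set apart Hspe1 fell by 2.05 (edgeR adjusted p = 0.0043) and the Hspd1 call was lost (0.0567). Hspa8 was lower at BPA 250 by 0.49 on the log2 scale (edgeR adjusted p = 0.0299), and that call was lost without those libraries (0.0800).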
